A study of Rattus norvegicus with 12 samples.

Results

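Macrophages are the resident phagocytes of fat tissue. They clear dying adipocytes and take up lipid, and they are recognised by surface receptors, a phagocyte oxidase, lysosomal proteins and secreted factors. Their number and state in epididymal fat are known to follow the energy balance of the animal. The expression of 40 genes of this kind was examined on 12 Affymetrix rat arrays. The genes were listed by symbol for their known role in macrophages, but with earlier results of these data known. The counts below therefore describe this list and are not an independent test of it. Of these genes, 37 had a probe set with a single gene symbol on the array; Msr1, Vsig4 and Siglec1 had none and were not analysed here. The array holds 14218 named genes in all. Where a gene had several probe sets, as 8 of the 37 did, the probe set with the highest mean over the 12 arrays stands for it. The list mixes genes that macrophages share with other leukocytes (Ptprc, Coro1a, Cd53) and genes that other cells of the tissue also make (Apoe, Cd9, Cd63, Lgals3).

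RNA came from epididymal white adipose tissue of rats killed at 24 weeks of age, with 4 arrays in each of 3 groups, labelled as biological replicates. Wild Wistar rats ate freely (AL) or received 70% of the energy intake from 6 weeks of age (CR). The other group (Tg) were dwarf rats, heterozygous for a transgene that carries growth hormone (GH) sequence in antisense, and they ate freely. The sources used here do not name the transgene's promoter, and the genotype field reads Jcl:Wistar (-/-) on all 12 arrays, so Tg rests on titles and source names. All rats were fed 30 minutes before the lights went off and killed after they came on the next morning. Each sample's description holds a code with a stem common to the 4 arrays of its group, and no stem occurs in more than 1 group. If it marks a working session, session and group cannot be told apart. Arrays are named by group and replicate number (AL1 to AL4 and so on), and values are log2 of the deposited intensity of the probe set.

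Adipoq, the adipocyte hormone adiponectin, stood at 14.59 to 15.04 on all 12 arrays. Some arrays also carried transcripts of neighbouring organs. Prm1, a gene of sperm chromatin, lay between 13.22 and 15.17 on 4 arrays (AL1, AL2, CR1, Tg2) and reached at most 9.54 on the other 8. The epithelial gene Epcam was above 9 on AL3, CR2, CR4, Tg2, Tg3 and Tg4. Adam7, a gene of the caput epididymis, was 13.84 on CR4, and Prss1, a pancreatic enzyme, 13.89 on Tg1; neither passed 8 on another array. These signals vary within groups, and the counts below are also given without the arrays that carry them or with their levels as covariates.

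In fat of restricted rats most macrophage genes were lower than in fat of rats that ate freely. Of the 37 genes, 33 had a lower mean in CR than in AL (all probe sets tested: 50.1%), with a median log2 difference of -0.44, against a median of -0.00076 over all 23281 probe sets tested. The test (limma over all probe sets, Benjamini-Hochberg adjusted p under 0.05) could be made for 36 of the genes, since Mmp12 lay under the brightness filter. In that test 13 fell and 0 rose, while 0.816% of all probe sets tested fell and 0.636% rose. At unadjusted p under 0.05, 25 macrophage genes were lower and 0 higher, against 9.49% and 7.19% of all probe sets. The CR and AL arrays did not overlap, CR being lower, for 23 of the 37 (all probe sets tested: 5.61%). The 13 that fell were Siglec10, Spp1, Pla2g2d, Ptprc, Adgre1, Coro1a, Cybb, Cd68, Cd53, Clec10a, Csf1r, Fcer1g and Itgb2. In a piece of whole fat, fewer macrophages and less of a transcript in each macrophage cannot be told apart.

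**Figure D1:**
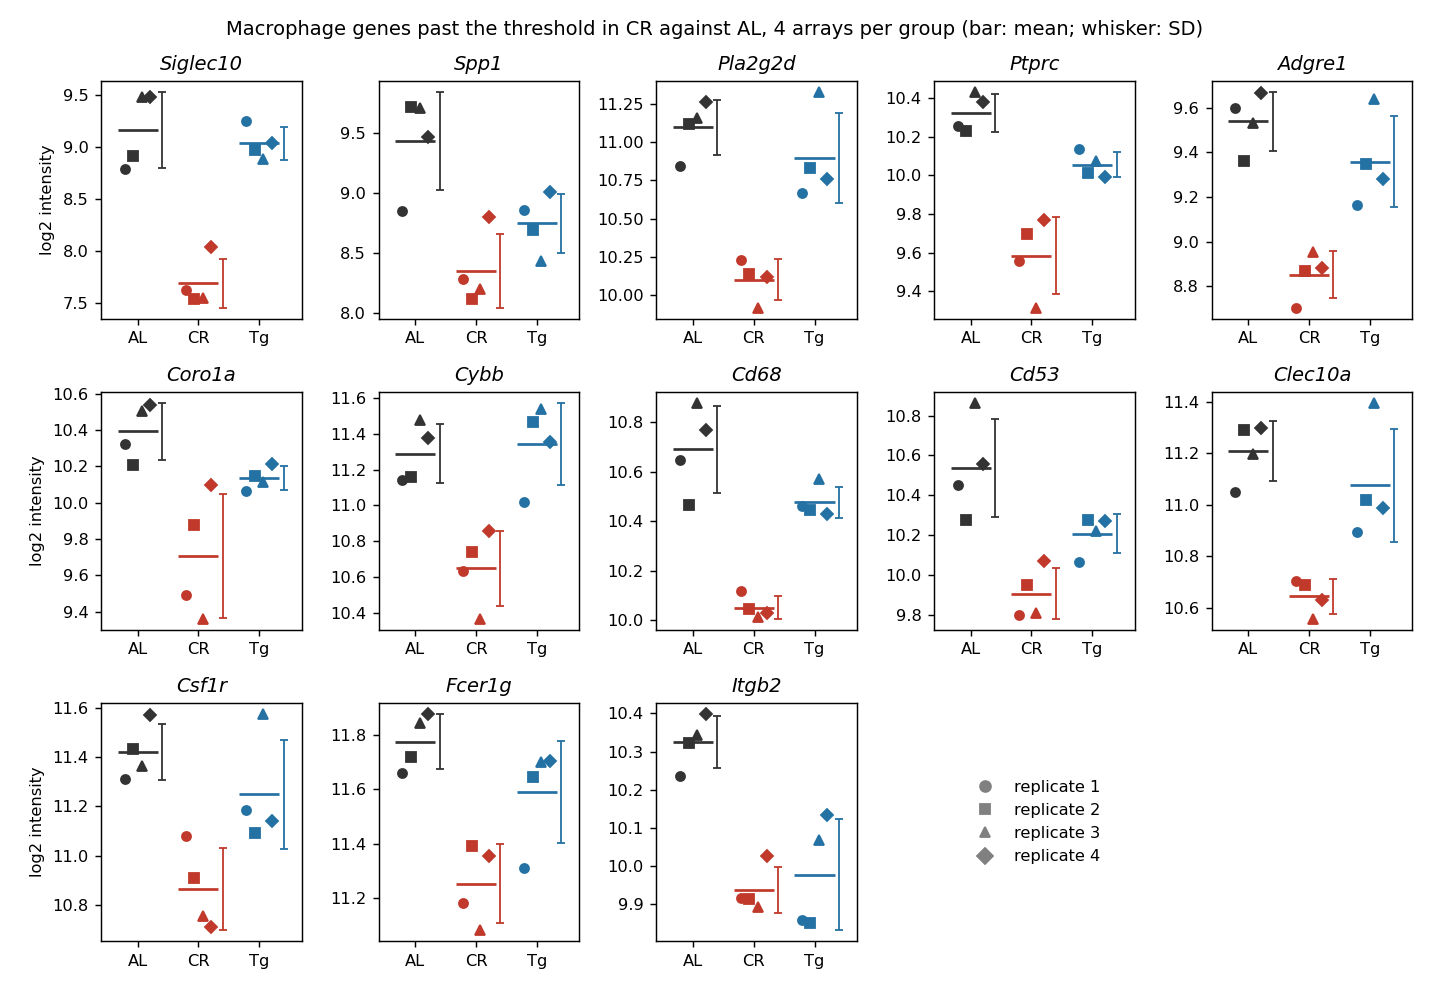
Log2 intensity (y axis) of the 13 macrophage genes that passed the threshold in CR against AL, by group (x axis), with 1 point per array, the symbol giving the replicate number, a bar for the mean and a whisker for the SD of 4 arrays. In all 13 panels the 4 CR points lie below the 4 AL points, and the Tg points lie between or beside them.

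Of 9 genes for surface and identity markers 6 fell in CR (all probe sets tested: 0.816%), among them Cd68, Adgre1 and Csf1r. Cd68, a lysosomal glycoprotein used to count macrophages in tissue sections, read 10.65, 10.47, 10.88 and 10.77 in AL, 10.12, 10.04, 10.02 and 10.03 in CR, and 10.46, 10.44, 10.57 and 10.43 in Tg. The 4 CR arrays lay close together and below every other array. Cd68 was 10.69 ± 0.18 in AL and 10.05 ± 0.05 in CR (SD, n = 4), 1.56-fold lower (log2 difference -0.64, SE 0.08, adjusted p = 0.00678). Adgre1, an adhesion receptor that marks mature rodent macrophages, read 9.60, 9.36, 9.53 and 9.67 in AL, 8.70, 8.87, 8.95 and 8.88 in CR, and 9.16, 9.35, 9.64 and 9.28 in Tg. It fell by 0.69 in CR (SE 0.11, adjusted p = 0.0167), and its CR arrays again lay below all others. Csf1r, the receptor for the growth factor CSF1 on which macrophages depend, read 11.31, 11.43, 11.36 and 11.57 in AL, 11.08, 10.91, 10.76 and 10.71 in CR, and 11.19, 11.09, 11.58 and 11.14 in Tg. It fell by 0.56 (SE 0.12, adjusted p = 0.0442), with CR1 close below Tg2.

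Of the other 6 surface genes, Ptprc, Cd53 and Itgb2 fell and Itgam, Cd14 and Cd48 did not pass the test. Ptprc, the CD45 phosphatase of all nucleated blood cells, read 10.25, 10.23, 10.43 and 10.38 in AL, 9.56, 9.69, 9.31 and 9.77 in CR, and 10.13, 10.01, 10.08 and 9.99 in Tg. It fell by 0.74 (SE 0.09, adjusted p = 0.00678), and the 3 groups did not overlap, with AL highest and CR lowest. Its other probe set fell by 0.51 (adjusted p = 0.0326). Cd53, a leukocyte tetraspanin, read 10.45, 10.28, 10.86 and 10.56 in AL, 9.80, 9.95, 9.81 and 10.07 in CR, and 10.07, 10.27, 10.22 and 10.27 in Tg. It fell by 0.63 (adjusted p = 0.0304); CR4 lay at the level of Tg1. Itgb2, the beta chain shared by the leukocyte integrins, read 10.23, 10.32, 10.34 and 10.40 in AL, 9.92, 9.91, 9.89 and 10.03 in CR, and 9.86, 9.85, 10.07 and 10.13 in Tg. It fell by 0.39 (adjusted p = 0.0379), and here the Tg values enclosed those of CR while AL stood above both. Its partner in complement receptor 3, Itgam, read 8.15, 8.43, 8.01 and 8.27 in AL, 8.03, 8.02, 7.97 and 7.79 in CR, and 7.87, 7.99, 8.28 and 7.98 in Tg. Itgam was at -0.26 in CR without passing the test (adjusted p = 0.27), and its groups overlapped. Cd14, the lipopolysaccharide co-receptor, was at -0.25 (adjusted p = 0.221) and Cd48, a receptor of the SLAM family, at -0.12 (adjusted p = 0.682).

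The start-site regions of Cd68, Csf1r, Adgre1 and Cybb are shown because all 4 genes fell in CR and because macrophage promoters are known targets of PU.1, the myeloid transcription factor encoded by Spi1. The sequences are the 250 bases before the start of the gene in RefSeq (build GRCr8), read in the direction of the gene. Capitals mark the PU.1 core GAGGAA or its reverse complement TTCCTC; the core holds GGAA, which is shared by all ETS factors.
Cd68, chr10:54882442-54882691, minus strand: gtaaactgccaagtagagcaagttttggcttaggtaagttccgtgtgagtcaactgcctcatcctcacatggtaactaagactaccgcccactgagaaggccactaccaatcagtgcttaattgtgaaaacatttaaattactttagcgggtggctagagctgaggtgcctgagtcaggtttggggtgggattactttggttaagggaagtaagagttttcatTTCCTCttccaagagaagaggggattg
Csf1r, chr18:56834129-56834378, plus strand: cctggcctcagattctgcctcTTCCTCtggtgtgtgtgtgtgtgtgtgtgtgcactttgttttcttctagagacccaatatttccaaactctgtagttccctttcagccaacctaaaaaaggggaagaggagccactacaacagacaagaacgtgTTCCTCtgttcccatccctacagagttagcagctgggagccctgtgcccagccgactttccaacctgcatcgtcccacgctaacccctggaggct
Adgre1, chr9:2329190-2329439, plus strand: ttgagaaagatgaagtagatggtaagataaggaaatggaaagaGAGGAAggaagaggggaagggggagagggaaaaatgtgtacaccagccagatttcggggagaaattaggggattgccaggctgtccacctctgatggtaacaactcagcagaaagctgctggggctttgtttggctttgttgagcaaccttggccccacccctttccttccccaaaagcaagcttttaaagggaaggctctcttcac
Cybb, chrX:16065066-16065315, minus strand: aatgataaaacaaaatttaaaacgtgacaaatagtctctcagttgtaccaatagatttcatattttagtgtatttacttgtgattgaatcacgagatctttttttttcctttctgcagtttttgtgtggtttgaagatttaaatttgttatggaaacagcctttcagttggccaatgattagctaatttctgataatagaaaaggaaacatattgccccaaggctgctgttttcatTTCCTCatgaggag
The Cd68 region holds a match on the opposite strand close to the start, as does that of Cybb. Csf1r holds 2, and Adgre1 a match on its own strand far upstream. Of the 40 genes, 29 had an entry in the RefSeq promoter table, with 31 promoters in all, and 19 of these (61.3%) held the core, against 23.3% of the table's 33469 promoters. Among the genes that fell in CR, 8 of 10 promoters held it, and among the other members 11 of 21. A match of 6 letters is a description of the sequence. Spi1 had no probe set with a single gene symbol, so its level on these arrays is not known. The genes Aif1, C1qc, Clec10a, Fcer1g, Fcgr2b, Itgb2, Lgals3, Msr1, Plek, Siglec1 and Tyrobp had no entry.

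The phagocyte oxidase, which makes superoxide, changed in its catalytic subunit. Cybb, that subunit, read 11.14, 11.16, 11.47 and 11.38 in AL, 10.64, 10.74, 10.37 and 10.86 in CR, and 11.02, 11.47, 11.54 and 11.35 in Tg. It fell by 0.64 in CR (SE 0.13, adjusted p = 0.0438), and all CR arrays lay below all AL and Tg arrays. The other Cybb probe set fell by 0.50 (adjusted p = 0.0483). Cyba, the membrane partner of Cybb, was at -0.20 (adjusted p = 0.39) and the cytosolic subunit Ncf1 at -0.25 (adjusted p = 0.562). Both overlapped between the groups, and a dimmer Cyba probe set under the brightness filter was at 0.35. Whether Cyba and Cybb changed by different amounts was not tested.

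Fcer1g and Tyrobp encode small adaptors that carry the signals of Fc receptors and of Trem2. Fcer1g read 11.66, 11.72, 11.85 and 11.88 in AL, 11.18, 11.39, 11.08 and 11.35 in CR, and 11.31, 11.64, 11.70 and 11.70 in Tg. It fell by 0.52 (SE 0.10, adjusted p = 0.0385), with every CR array below every AL array. Tyrobp read 9.47, 9.48, 9.56 and 9.53 in AL, 9.03, 9.22, 9.18 and 9.15 in CR, and 9.16, 9.38, 9.57 and 9.43 in Tg. Its arrays did not overlap between CR and AL, but at -0.36 it missed the threshold (SE 0.08, adjusted p = 0.0583). Trem2, a receptor for lipids on macrophages of obese fat, read 9.01, 8.81, 8.96 and 8.84 in AL, 8.48, 8.46, 8.80 and 8.67 in CR, and 8.71, 7.97, 8.88 and 8.66 in Tg. It was at -0.30 in CR (adjusted p = 0.391), and the lowest value of all, 7.97, was in Tg. The dimmer Trem2 probe set was at -0.46 in CR against AL (adjusted p = 0.194). The inhibitory IgG receptor Fcgr2b was at -0.23 (adjusted p = 0.619).

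Among receptors for sugars and scavenged ligands, the largest difference of all 37 genes was that of Siglec10, which encodes an inhibitory receptor for sialic acid. Siglec10 read 8.79, 8.91, 9.48 and 9.48 in AL, 7.63, 7.54, 7.55 and 8.04 in CR, and 9.25, 8.98, 8.88 and 9.04 in Tg. The highest CR value, on CR4, lay well under the lowest value of the other groups, on AL1. Siglec10 was 9.17 ± 0.37 in AL and 7.69 ± 0.24 in CR (SD, n = 4), 2.78-fold lower (log2 difference -1.48, SE 0.17, adjusted p = 0.00484). Clec10a, a lectin for galactose-type sugars on tissue macrophages, read 11.05, 11.29, 11.20 and 11.30 in AL, 10.71, 10.69, 10.56 and 10.63 in CR, and 10.90, 11.02, 11.40 and 10.99 in Tg. It fell by 0.56 (SE 0.10, adjusted p = 0.0304), and its CR arrays lay below all others. The mannose receptor Mrc1 read 11.19, 11.72, 11.97 and 11.66 in AL, 11.11, 11.09, 11.04 and 11.16 in CR, and 11.39, 11.56, 11.58 and 11.73 in Tg. All CR values lay under all AL values, AL1 being close to CR4, and Mrc1 missed the threshold at -0.54 (SE 0.14, adjusted p = 0.0776). Cd163, the scavenger receptor for haemoglobin bound to haptoglobin, read 10.11, 10.50, 10.44 and 10.46 in AL, 10.32, 10.47, 9.57 and 9.71 in CR, and 10.27, 10.36, 10.96 and 10.29 in Tg. CR3 and CR4 were low and CR1 and CR2 at the AL level, so that Cd163 was at -0.36 with an adjusted p of 0.43. The lectin genes Cd209f and Clec4a1 were at -0.81 (adjusted p = 0.194) and -0.43 (adjusted p = 0.117), without overlap between CR and AL. Of the 6 receptors of this kind on the array, 2 fell (all probe sets tested: 0.816%). For 5 the CR arrays lay below all AL arrays (all probe sets tested: 5.61%).

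Of 5 secreted products that could be tested, 2 fell (all probe sets tested: 0.816%). Osteopontin, Spp1, which is made by macrophages of inflamed fat, read 8.85, 9.72, 9.71 and 9.47 in AL, 8.28, 8.11, 8.20 and 8.80 in CR, and 8.86, 8.69, 8.43 and 9.01 in Tg. It fell by 1.09 (SE 0.21, adjusted p = 0.0362), but AL1 lay close to the highest CR array, CR4. Pla2g2d, a secreted phospholipase A2, read 10.84, 11.12, 11.16 and 11.26 in AL, 10.23, 10.14, 9.92 and 10.12 in CR, and 10.67, 10.83, 11.33 and 10.76 in Tg. It was 1.99-fold lower in CR (SE on the log2 scale 0.14, adjusted p = 0.0116), and every CR array lay below every AL and Tg array. C1qc, a chain of complement C1q, was at -0.44 (adjusted p = 0.189), and lysozyme, Lyz2, at -0.36 (adjusted p = 0.24). The macrophage elastase Mmp12 was dim, at 6.07 to 6.25 in CR and 6.30 to 7.35 in AL, and was not tested. Of the actin regulators of leukocytes, Coro1a read 10.32, 10.21, 10.50 and 10.54 in AL, 9.49, 9.88, 9.36 and 10.10 in CR, and 10.06, 10.15, 10.12 and 10.21 in Tg. It fell by 0.69 (SE 0.14, adjusted p = 0.0442), with CR4 just under AL2. Aif1, an actin-binding protein known as IBA1, was at -0.74 on its brightest probe set (adjusted p = 0.057) and at 0.16 on the dimmer probe set (adjusted p = 0.647), so its probe sets differed in sign. That brightest Aif1 probe set is of a type that can read several related transcripts.

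Of the 6 lysosomal, tetraspanin and galectin genes, 0 passed the test (limma) on the brightest probe set. At unadjusted p under 0.05, 3 were lower and 0 higher, against 9.49% and 7.19% of all probe sets. Laptm5, a lysosomal membrane protein of blood cells, was at -0.43 (adjusted p = 0.0601), and its other, slightly dimmer probe set fell by 0.58 (adjusted p = 0.0258). Gpnmb, a glycoprotein of lipid-laden macrophages, was at -0.63 (SE 0.23, adjusted p = 0.21), Cd9 at -0.52 (adjusted p = 0.155) and the lysosomal protease Lgmn at -0.30 (adjusted p = 0.395), with a dimmer probe set under the brightness filter at 0.09. The 4 genes with a higher mean in CR were Cd63 (0.29, adjusted p = 0.521), Apoe (0.28, adjusted p = 0.777), the galectin gene Lgals3 (0.25, adjusted p = 0.332) and Plek (0.23, adjusted p = 0.532), a kinase substrate of platelets and leukocytes. None of these 4 passed the test in any of the 3 comparisons.

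Apoe, which encodes the apolipoprotein of lipid export, varied most within the AL and CR groups, with an SD of 0.78 and 0.75. Apoe read 12.96, 13.34, 14.76 and 13.42 in AL, 13.22, 14.50, 13.29 and 14.60 in CR, and 13.44, 14.65, 14.35 and 14.66 in Tg. The 6 arrays with Epcam above 9 (AL3, CR2, CR4, Tg2, Tg3 and Tg4) had Apoe at 14.35 to 14.76, and the other 6 had it at 12.96 to 13.44, in each of the 3 groups. Single Apoe probes exceeded the deposited saturation level in 15 of 132 readings, so its high values may be understated. Cd63 read 14.28 on CR4, the array with the Adam7 signal, and 13.04 to 13.43 on the other 11. Beside Epcam, Cd63 was 13.23 on the high array against 13.04 to 13.21 in AL, and 13.32 to 13.43 against 13.13 in Tg. In CR its 13.19 to 14.28 overlapped the 13.12 to 13.24 of the others. Cd68 showed no split like that of Apoe, with 10.03 to 10.88 on the arrays with high Epcam and 10.02 to 10.77 on the others. In AL Cd68 was 10.88 against 10.47 to 10.77, while its values overlapped in CR and Tg. Lyz2 was 13.54 to 13.67 on the CR arrays with high Epcam and 13.12 to 13.40 on the other CR arrays. In Tg it was 13.78 to 14.08 against 13.52, but in AL 13.84 lay within the 13.66 to 13.91 of the others. Ptprc was 9.69 to 9.77 against 9.31 to 9.56 in CR and 10.43 against 10.23 to 10.38 in AL. In Tg the order was reversed, at 9.99 to 10.08 against 10.13. The part of duct epithelium in the Apoe, Cd63, Lyz2 and Ptprc values was not tested.

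**Figure D2:**
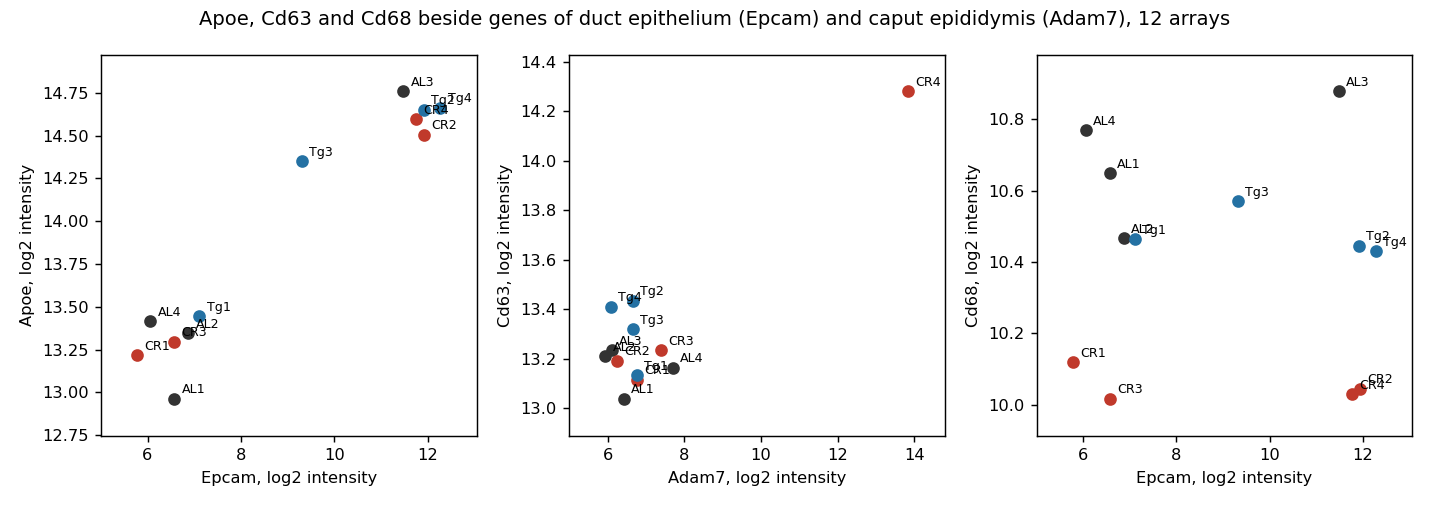
Log2 intensity of Apoe, Cd63 and Cd68 (y axes) against Epcam or Adam7 (x axes, log2 intensity), with 1 labelled point per array and the groups AL in black, CR in red and Tg in blue. Apoe lies at 14.35 or more on the 6 arrays with Epcam above 9 and at 13.44 or less on the others, Cd63 stands out on CR4 alone, and for Cd68 the CR points lie lowest at either level of Epcam.

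The fall of the 13 genes rested on all arrays to different degrees. Cd68, Ptprc, Siglec10 and Pla2g2d kept their calls when each of the 12 arrays was left out in turn (highest adjusted p 0.0317, 0.0324, 0.0249 and 0.0494). Adgre1 kept its call in 8 of these 12 fits, Cd53 and Clec10a in 6, Itgb2 in 5, Fcer1g and Spp1 in 4, Cybb in 2, and Csf1r and Coro1a in 1. For these 9 genes the highest adjusted p came without AL4 and ran from 0.065 (Adgre1) to 0.137 (Csf1r and Coro1a). The number of macrophage genes that fell was 7 without AL1, 6 without AL2, 5 without AL3 and 4 without AL4. The shares of all probe sets that fell were 0.176%, 0.687%, 0.125% and 0.0515% there, against 0.816% in the main fit. Of the macrophage genes 4 fell without CR1 or CR2 and 5 without CR3 (all probe sets: 0.163%, 0.0988% and 0.168%). Without Tg2, 8 fell (0.408%), and 10 to 12 without each of CR4, Tg1, Tg3 and Tg4 (0.46% to 0.619%). Without CR4 and Tg1, 11 fell (all probe sets: 0.369%). Without AL1, AL2, CR1 and Tg2, the arrays with spermatid transcripts, which leaves 2 AL arrays, 0 macrophage genes and 2 probe sets in all passed in limma. At unadjusted p under 0.05, 20 macrophage genes were then lower and 0 higher, against 9.41% and 3.44% of all probe sets, and the median of the 37 was -0.58. With the spermatid and duct epithelium levels as covariates 22 fell and 0 rose, in a fit that called 1628 probe sets in place of 338 and in which 3.78% of all probe sets fell. All 13 differences kept their sign in all 25 alternative fits.

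In rats with the antisense GH transgene no macrophage gene passed the test against AL. Of the 37, 27 had a lower mean in Tg (all probe sets tested: 51.9%), with a median difference of -0.13 against -0.0076 over all probe sets. With limma 0 passed in either direction, as did 0% of all probe sets; at unadjusted p under 0.05, 5 were lower and 0 higher, against 3.51% and 2.44% of all probe sets. Fitted on the deposited probe z-scores, 0 passed too, with 4 lower and 0 higher at unadjusted p under 0.05 (all probe sets: 3.35% and 2.48%). With the spermatid and duct epithelium covariates 10 were lower and 0 higher at that level (3.9% and 2.8%). Without CR4 and Tg1, 4 were lower and 2 higher (4.36% and 3.11%), and without AL1, AL2, CR1 and Tg2, 7 and 0 (2.6% and 0.713%). With 1 array left out, 4 (as without AL4, all probe sets: 2.19%) to 12 (without Tg3, 4.3%) were lower and at most 1 higher. All Tg arrays lay below all AL arrays for 3 of the 37, namely Ptprc, Itgb2 and Cd53 (all probe sets tested: 2.61%). Itgb2 was at -0.35 (95% interval -0.51 to -0.18, adjusted p = 0.551) and Spp1 at -0.69 (95% interval -1.15 to -0.23, adjusted p = 0.648). Cd68 was at -0.21 (-0.39 to -0.04), Ptprc at -0.27 (-0.48 to -0.06) and Adgre1 at -0.18 (-0.41 to 0.05). Siglec10 was at -0.13 (-0.51 to 0.25) and Cybb at 0.06 (-0.24 to 0.35). The intervals show how large a difference could have been missed. Both comparisons use the same AL arrays, so their values are not independent.

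**Figure D3:**
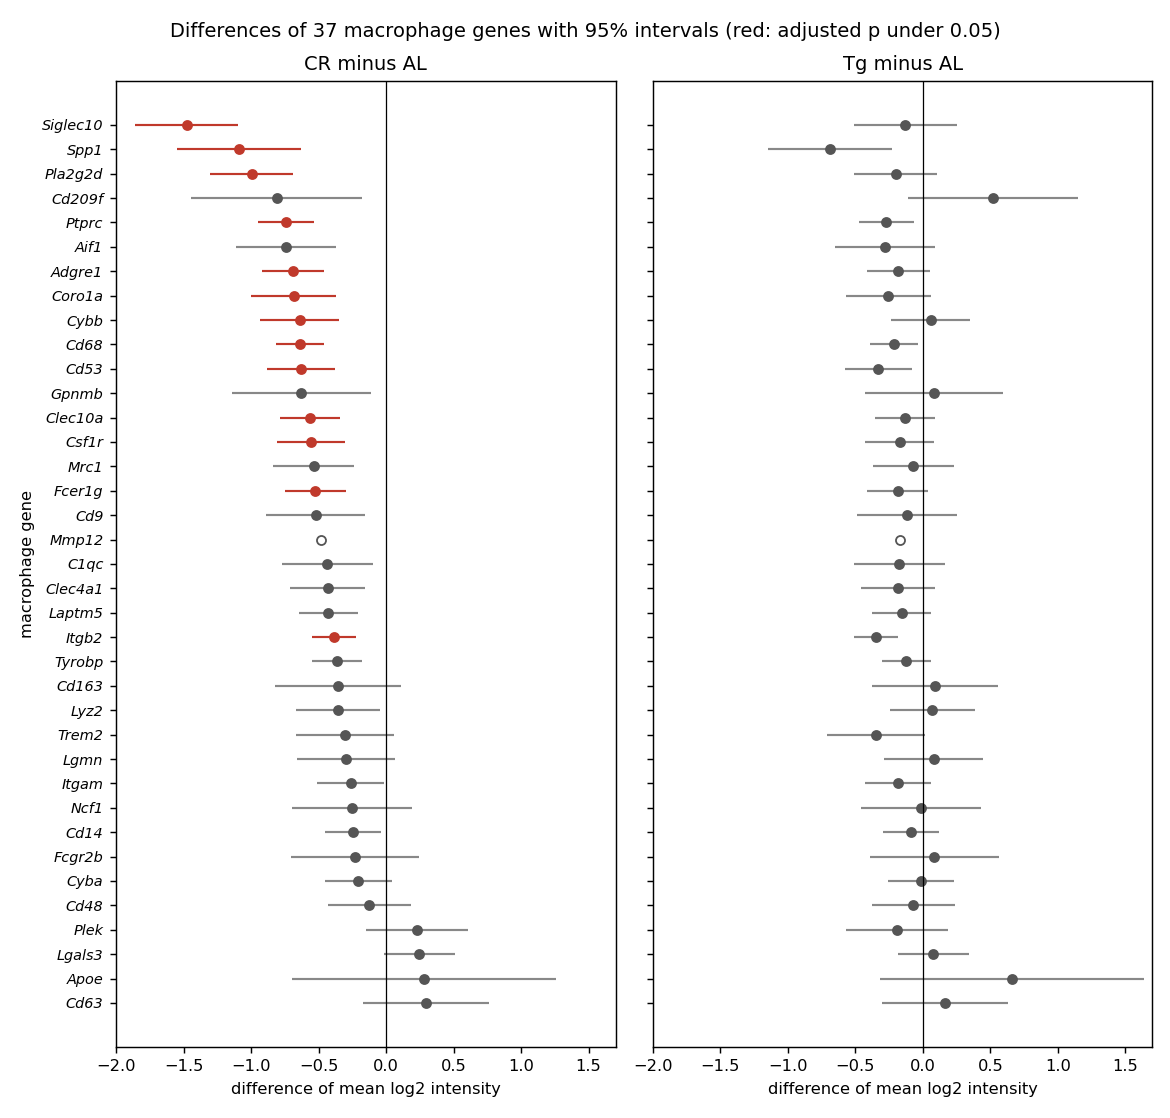
Difference of mean log2 intensity (x axes) of each of the 37 macrophage genes (y axis) for CR minus AL on the left and Tg minus AL on the right, with 95% intervals from limma; red marks adjusted p under 0.05 and the open circle Mmp12, which was not tested. On the left 33 points lie below 0 and 13 are red, and on the right 27 lie below 0 and 0 are red.

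The direct comparison of CR with Tg tests whether the changes against AL differ, since the AL arrays cancel. Of the 36 genes tested, 6 were lower in CR and 0 higher, against 0.515% and 0.735% of all probe sets tested, and the median over the 37 was -0.37. At unadjusted p under 0.05, 20 were lower and 1, Plek, higher, against 8.89% and 8% of all probe sets. A lower mean in CR than in Tg was found for 33 of the 37 (all probe sets tested: 51.7%). The 6 were Siglec10 (-1.35, SE 0.17, adjusted p = 0.00733), Pla2g2d (-0.79, adjusted p = 0.0279), Cybb (-0.70, adjusted p = 0.0338), Adgre1 (-0.51, adjusted p = 0.0455), Ptprc (-0.47, adjusted p = 0.0395) and Cd68 (-0.43, adjusted p = 0.0338). The dimmer probe sets of Ptprc (-0.22, adjusted p = 0.285) and Cybb (-0.48, adjusted p = 0.0616) did not pass here. All CR arrays lay below all Tg arrays for 11 of the 37 genes (all probe sets tested: 6.1%). Cd209f, a lectin of the DC-SIGN family, read 9.41, 9.35, 9.53 and 9.73 in AL, 8.68, 9.26, 8.59 and 8.25 in CR, and 9.42, 10.19, 10.87 and 9.61 in Tg. Its CR arrays lay below all others, and Tg2 and Tg3 lay above all AL arrays, with a difference between CR and Tg of -1.33 that missed the threshold (SE 0.29, adjusted p = 0.0525). Itgb2, in contrast, was at -0.04 between CR and Tg (95% interval -0.21 to 0.13), and Trem2 at 0.05 (-0.32 to 0.41). The dimmer Trem2 probe set was at -0.03 here (adjusted p = 0.965).

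Deviations over all probe sets correlated positively between CR and Tg arrays of the same replicate number. The best match of CR2 was Tg4, however, and that of CR3 was Tg1, so the number is not an established pairing. With the number as a block in limma 1 gene, Siglec10, kept its call (adjusted p = 0.0211). The other 5 had adjusted p from 0.0612 to 0.0921 in that fit, and 116 probe sets passed in place of 291. With the 2 groups alone and the block, chosen after seeing the data, Siglec10 again was the 1 gene that passed (adjusted p = 0.0149). Of all probe sets 0.0515% were called lower in that fit. Leaving out arrays in turn gave 1 gene without CR1, CR2, CR3, Tg2 or Tg4 (all probe sets lower: 0.043% to 0.146%). It gave 2 without AL1, AL4 or Tg3 (0.0387% to 0.176%) and 3 without Tg1 (0.12%). Without AL2 or AL3 it gave 5 (0.417% and 0.391%) and without CR4 6 (0.619%), against 0.515% in the main fit. Siglec10 passed in all 12 of these fits (highest adjusted p 0.0364), Pla2g2d in 7, Cybb in 4, Cd68 in 3, Ptprc in 2 and Adgre1 in 1. The highest adjusted p of these 5 ran from 0.0793 for Pla2g2d (without CR3) to 0.128 for Adgre1 (without CR1).

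Within groups the macrophage genes varied with the array. AL1 had the lowest AL value for 22 of the 37 genes and AL3 the highest for 19. Tg1 was lowest in Tg for 24 and Tg3 highest for 21, while CR3 was lowest in CR for 16 and CR4 highest for 15. The mean over the 36 tested genes was 10.65 to 10.96 in AL, 10.24 to 10.46 in CR and 10.54 to 10.89 in Tg, so that the CR arrays lay below all others and AL and Tg overlapped. Tg1, the lowest Tg array, carried the Prss1 signal, and AL1 was among those with Prm1. The part of either in these levels was not tested. The median SD of the genes within a group was 0.18 in AL, 0.20 in CR and 0.20 in Tg, against 0.16, 0.18 and 0.15 over all probe sets tested.

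Other myeloid genes, a list of 50 of which 39 were on the array and 38 could be tested, fell in part as well. In CR against AL 6 fell and 0 rose (all probe sets tested: 0.816% and 0.636%). At unadjusted p under 0.05 (limma), 17 were lower and 0 higher, against 9.49% and 7.19% of all probe sets. A lower mean was found for 35 of 38 (all probe sets tested: 50.1%), and the median was -0.33. The largest of the 6 differences were those of Cd300a, an inhibitory receptor (-0.84, adjusted p = 0.0349), the bacterial lipopeptide receptor Tlr2 (-0.56, adjusted p = 0.026), the folate receptor gene Folr2 (-0.52, adjusted p = 0.0472) and the adaptor Lcp2 (-0.46, adjusted p = 0.0496). In Tg against AL 0 passed (limma), and 4 were lower and 0 higher at unadjusted p under 0.05 (all probe sets: 3.51% and 2.44%). In CR against Tg, where 0.515% of all probe sets were lower, Tlr2 (-0.51, adjusted p = 0.0335) and Cd300a (-0.75, adjusted p = 0.0496) were lower. Tlr2 was 7.98 to 8.08 in CR, 8.41 to 8.82 in AL and 8.44 to 8.72 in Tg, with all CR arrays below all others. The macrophage growth factor Csf1 was at -0.0091 in CR against AL (SE 0.08, adjusted p = 0.962). Ccl2, a chemokine that draws monocytes, was at -0.80 (SE 0.28, adjusted p = 0.186). Of the list, 31 of 38 were lower in Tg than in AL (all probe sets tested: 51.9%), with a median of -0.09.

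Lists of other cell types gave 1 call in CR against AL, with limma as above. Over all probe sets tested, 0.816% fell, 0.636% rose and 50.1% had a lower mean. At unadjusted p under 0.05, 9.49% of them were lower and 7.19% higher. Of 15 T and NK cell genes 0 passed (median -0.19, 4 lower and 1 higher at unadjusted p under 0.05). Of 9 mast cell genes 0 passed (median -0.17, 2 lower and 1 higher at unadjusted p under 0.05), and of 6 dendritic cell genes 0 (median -0.09, 0 lower and 0 higher at unadjusted p under 0.05). Of 4 neutrophil genes bright enough to test 0 passed (2 lower and 0 higher at unadjusted p under 0.05), and of 3 B cell genes 0 (0 lower and 0 higher at unadjusted p under 0.05). Endothelial genes had 0 of 11 past the threshold and 10 with a lower mean (median -0.36, 6 lower and 0 higher at unadjusted p under 0.05). Fibroblast and matrix genes had 0 of 16 and 15 with a lower mean, and their mean level was 12.10 to 12.24 in CR, 12.32 to 12.55 in AL and 12.32 to 12.70 in Tg, without overlap of CR with either (median -0.21, 5 lower and 0 higher at unadjusted p under 0.05). Among 11 adipocyte genes the insulin-responsive glucose transporter Slc2a4 rose by 1.16 (SE 0.21, adjusted p = 0.0278), and 7 of the 11 had a higher mean. Proliferation genes had 0 of 9 past the threshold (median -0.64, 3 lower and 1 higher at unadjusted p under 0.05). Whether the macrophage list differed from the endothelial or matrix list was not tested.

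Genes of neighbouring tissue gave 0 calls in CR against AL, where the shares over all probe sets are those given above. The spermatid and duct epithelium lists were high on arrays of all 3 groups, the caput list on CR4 and the pancreas list on Tg1. The medians were -1.67 for 10 spermatid genes (0 lower and 0 higher at unadjusted p under 0.05), 0.92 for 10 duct epithelium genes (0 lower and 1 higher at unadjusted p under 0.05), 1.57 for 3 caput genes (0 lower and 0 higher at unadjusted p under 0.05) and 0.37 for 8 pancreas genes (1 lower and 0 higher at unadjusted p under 0.05). In CR against Tg, the matrix gene Mfap5 (-0.77, adjusted p = 0.0344) and Slc2a4 (1.26, adjusted p = 0.0192) passed. In Tg against AL 0 genes of the lists of other cell types passed, while all 11 endothelial genes (median -0.22, 3 lower and 0 higher at unadjusted p under 0.05) and all 11 adipocyte genes (median -0.10, 1 lower and 0 higher at unadjusted p under 0.05) had a lower mean in Tg. Over all probe sets tested, 51.9% had a lower mean in Tg, and 3.51% were lower and 2.44% higher at unadjusted p under 0.05.

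**Figure D4:**
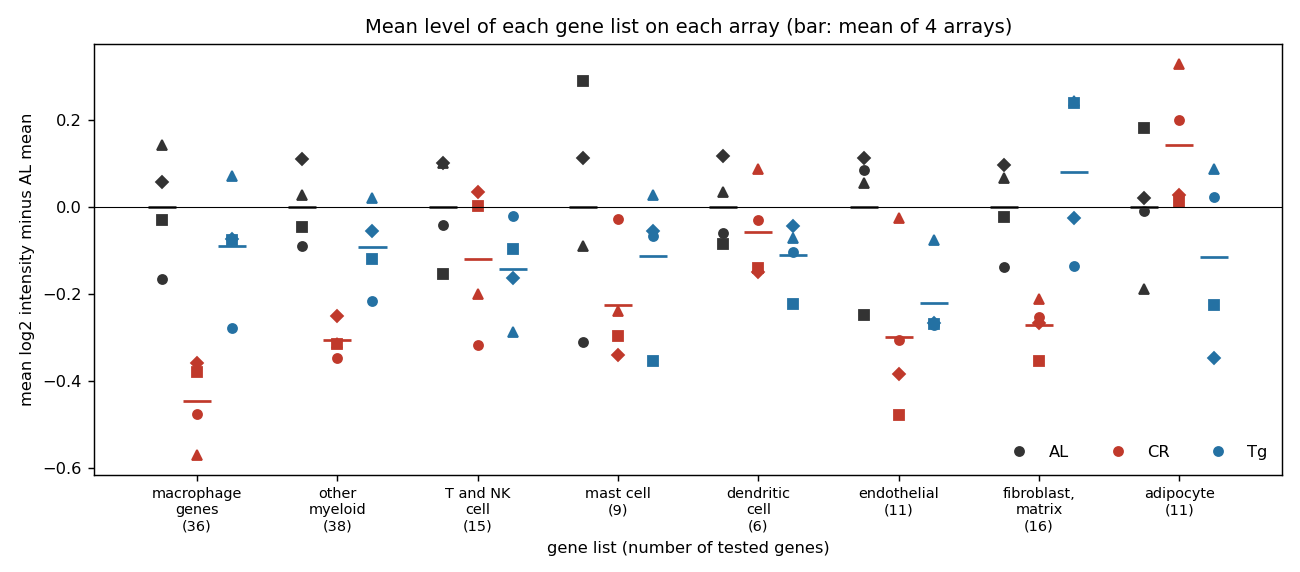
Mean log2 intensity of the tested genes of 8 lists on each array, minus the mean of the 4 AL arrays (y axis), by list (x axis, with the number of genes); symbols give the replicate number as in the plot of the 13 genes, and bars the mean of 4 arrays. For the macrophage genes, the other myeloid genes and the fibroblast and matrix genes all 4 CR points lie below all AL and Tg points, while the points of the other 5 lists overlap between groups.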

How the data were processed

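Total RNA of epididymal white adipose tissue from 12 rats was hybridised to Affymetrix rat arrays, 4 per group. The authors deposited a table of intensity values, 1 per probe set and array, made by a summary method that is not given in sources used here; its column medians were 222.6 to 239.4. The authors also deposited z-scores (a score per probe: log10 intensity less background, centred and scaled by array), and per the file headers a table of the array parameters. Undoing the z-scores with these parameters gave whole numbers for 100% of values up to 5000 (tolerance 0.01). Groups came from titles and source names.

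Values were set to at least 1 and taken to log2. Probe sets above the 25th percentile of the 12-array mean (6.61), 23281 of 31099, were tested with limma 3.58.1 in R 4.3.3 (lmFit on 3 group means over all 12 arrays, eBayes with a mean-variance trend), with Benjamini-Hochberg adjustment over all of them and a threshold of 0.05. Names came from the platform annotation, in which 20832 probe sets have 1 symbol, 436 several and 9780 none. Of the named probe sets 20764 matched a RefSeq gene identifier (GRCr8). The number of arrays limits the precision. In the main fit the p-values set a group difference against the spread of arrays within groups, pooled over the 3 groups and moderated by eBayes. The macrophage genes, the lists and the rules for naming genes were chosen with earlier results of these data known. A rule set which genes are named. It gives every array's value for members past the threshold and for 10 standard markers, and up to 4 called genes of each other list. It also names Csf1, Ccl2, Prm1, Epcam, Adam7, Prss1, Adipoq and Spi1 whatever their values, but Spi1 had no probe set with a single gene symbol. The array values of Apoe and Cd209f fall outside the rule and were given for the pattern they showed.

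Replicate numbers are shared by the groups' titles. Deviations from the group means over all probe sets correlated at 0.519, 0.320, 0.468 and 0.620 between like-numbered arrays of CR and Tg, so the blocked value stands beside that comparison. CR1 and CR4 matched the like-numbered Tg array best, but CR2 matched Tg4 and CR3 matched Tg1. CR2, CR4, Tg2, Tg3 and Tg4 had Epcam above 9, and its part in these correlations was not tested. For CR and AL they were 0.492, -0.319, -0.494 and -0.206, and for Tg and AL 0.255, 0.451, -0.299 and -0.181. Alternatives were a median polish of the z-scores, quantile normalization, median centring, other filters, an offset of 16, other variance models, the 2 groups alone, the replicate block, tissue covariates, the mean over probe sets, and arrays left out.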

Additional observations from a re-analysis of the deposited data

Results flagged for a closer look

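In groups of 4 arrays, 6 of 111 had an array whose gap to its neighbour was large against the whole range (Dixon's criterion), or 5.41%, and chance gives about 1 in 20. Cd48 was 12.40 on AL3 and Cd163 10.11 on AL1 and 10.96 on Tg3. Fcer1g was 11.31 on Tg1 and Laptm5 10.26 on CR1. Cd63 was 14.28 on CR4, the array that also carried Adam7.

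For 6 genes the change against AL differed between CR and Tg in limma's direct comparison of both groups, where the log2 difference was -1.35 for Siglec10, -0.79 for Pla2g2d, -0.70 for Cybb, -0.51 for Adgre1, -0.47 for Ptprc and -0.43 for Cd68. The adjusted p-values stand in the report, and with the replicate block Siglec10 alone of the 6 passed.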

How the results depend on the processing

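The count of macrophage genes higher past the threshold was 0 in every setting and comparison, and the 13 macrophage genes past the threshold in CR against AL and the 6 in CR against Tg kept their sign in every setting; genes of other lists and second probe sets were not followed across settings. In CR against AL the main counts were 338 probe sets and 13 macrophage genes. They were 52 and 6 with the 2 groups alone, 150 and 8 with the replicate block, 1628 and 22 with covariates, and 2 and 0 without AL1, AL2, CR1 and Tg2 (median -0.58); probe sets were 203 with no filter and 221 with no mean-variance trend. With 1 array left out they ran from 44 to 283 probe sets and from 4 to 12 genes, with the median at -0.51 to -0.38. In Tg against AL 2 probe sets passed on z-scores, 0 to 2 with 1 array left out, and 0 macrophage genes in all settings, with the median at -0.21 to -0.099. In CR against Tg the main counts were 291 and 6. They were 20 and 1 with the 2 groups alone, 116 and 1 with the replicate block, and 95 and 1 with both. With no mean-variance trend they were 189 and 3, and with covariates 1523 and 14. Without AL1, AL2, CR1 and Tg2 they were 0 and 0. At unadjusted p under 0.05 (limma), 11 genes were lower and 0 higher in that fit, against 7.92% and 4.18% of all probe sets. Probe sets were 179 when centred on medians and 161 for means of probe sets. With 1 array left out they ran from 41 to 468 probe sets and from 1 to 6 genes, with the median at -0.43 to -0.28. Fewer arrays enter the last settings; otherwise the cause was not tested. The z-scores called 13 genes in CR against AL, 12 of them shared (Tyrobp at adjusted p = 0.034 in place of Itgb2 at 0.0532, limma), and 6 in CR against Tg, 4 of them shared (Csf1r and Cd209f in place of Cd68 and Ptprc). For CR and Tg against AL the replicate numbers do not pair the arrays, and between CR and Tg like numbers matched best only for CR1 and CR4. Dim probe sets such as Mmp12 have no reliable fold.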
